A study of Mus musculus with 6 samples.

Results

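The cadherin and protocadherin genes were examined in RNA sequencing of dorsal root ganglia (DRGs) from control and Tlx3cko mice. Members were taken by symbol, as every protein-coding gene of the deposited read-count table named Cdh followed by a number only, or beginning Pcdh. The table held 92 such genes, of which 88 reached the minimum of 10 counts in total over the 6 libraries and were analysed among 20006 tested genes. The other 4 were Cdh16 with no count and Cdh17, Pcdha4 and Pcdhb1 with 1 count each. The 88 comprised 5 classical type I cadherins, 13 classical type II cadherins, 3 other cadherins, 12 non-clustered protocadherins and 55 clustered protocadherins (13 Pcdha, 21 Pcdhb and 21 Pcdhg).

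The study asked which DRG genes depend on Tlx3, a homeobox transcription factor of sensory neurons. The 3 control libraries were labelled wild type. The 3 Tlx3cko libraries came from Tlx3f/f;SNS-cre mice, in which Cre under the Nav1.8 promoter removes Tlx3 from most nociceptive neurons from late embryonic life and leaves it in the cells that lack this promoter's activity. All mice were C57BL/6 and about 2 months old, and whole ganglia were taken, so glia, vessels and connective tissue were sequenced with the neurons. The labels do not say whether a library is 1 animal or a pool, and the p-values below measure the spread between libraries.

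Cadherins are calcium-dependent adhesion proteins that mostly bind their own kind on a neighbouring cell. The classical members carry a catenin-binding tail that links the contact to actin, and combinations of type II members mark groups of neurons that sort together or form synapses. The clustered protocadherins are made from 3 neighbouring gene clusters in which each isoform has its own promoter, and the set of isoforms on a neuron gives it an identity by which its branches recognise one another. Most isoforms are picked by chance of promoter choice in each neuron and are called alternate, whereas the C-type isoforms at the ends of the Pcdha and Pcdhg clusters are expressed more regularly.

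Library totals ran from 11458299 to 18775628 counts. Normalized counts below are counts scaled to a common effective library size of 14970767. Tlx3 itself was at 1973, 2256 and 1941 normalized counts in control and 1652, 1380 and 1452 in Tlx3cko (log2 fold change -0.46, SE 0.09, edgeR adjusted p = 0.0122), so the groups did not overlap and transcript remained in every Tlx3cko library. The Tlx3 call was lost with a term for Y-linked counts (log2 fold change -0.38, edgeR adjusted p = 0.223) and in 3 of 6 fits that each left out 1 library, namely control replicate 2, Tlx3cko replicate 2 and Tlx3cko replicate 3. Control replicates 1 and 2 had 591 and 493 Xist counts and no Ddx3y count, whereas control replicate 3 and all Tlx3cko libraries had at most 2 Xist counts and 273 to 525 Ddx3y counts. Sex therefore differs in its balance between the groups, and a fit with a term for Y-linked counts is given where it ends a call. The defining markers of DRG neurons were present, from 5884 counts of Isl1 to 300091 of Tubb3 over all libraries. Their summed level was 118480 to 130763 normalized counts in control and 131492 to 137985 in Tlx3cko, without overlap. Of these 6 markers, 3 had a log2 fold change below 0 and 3 above. Only Scn10a, the Nav1.8 gene, passed (log2 fold change 0.43, edgeR adjusted p = 0.00281). The part of neuron content in the changes below was not tested. In the spinal cord list, 3 of 5 markers (Olig1, Olig2 and Slc32a1) were under 10 counts. Of the other spinal cord markers, Pax2 fell, with 26, 34 and 24 counts in control against 5, 1 and 6 in Tlx3cko (log2 fold change -2.65, edgeR adjusted p = 0.0164) and Gfap overlapped, with 14, 52 and 64 counts against 18, 8 and 46.

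Of the 88 genes, 7 passed the threshold (edgeR quasi-likelihood test, Benjamini-Hochberg adjusted p under 0.05 over all tested genes), against a background of 4.25% of all tested genes. Cdh9, Cdh1 and Cdh11 fell in Tlx3cko, and Cdh2, Pcdhgc3, Pcdh8 and Cdh24 rose. Over all tested genes 2.56% fell and 1.69% rose. Normalized counts of the 2 groups did not overlap for 24 of the 88 genes, 9 lower and 15 higher, against 19.7% of all tested genes (10.8% lower and 8.87% higher). The median log2 fold change of the 88 genes was 0.09, and that of all tested genes was -0.0036. Cdh1, Cdh9 and Pcdh8 passed in all 14 alternative fits.

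**Figure D1:**
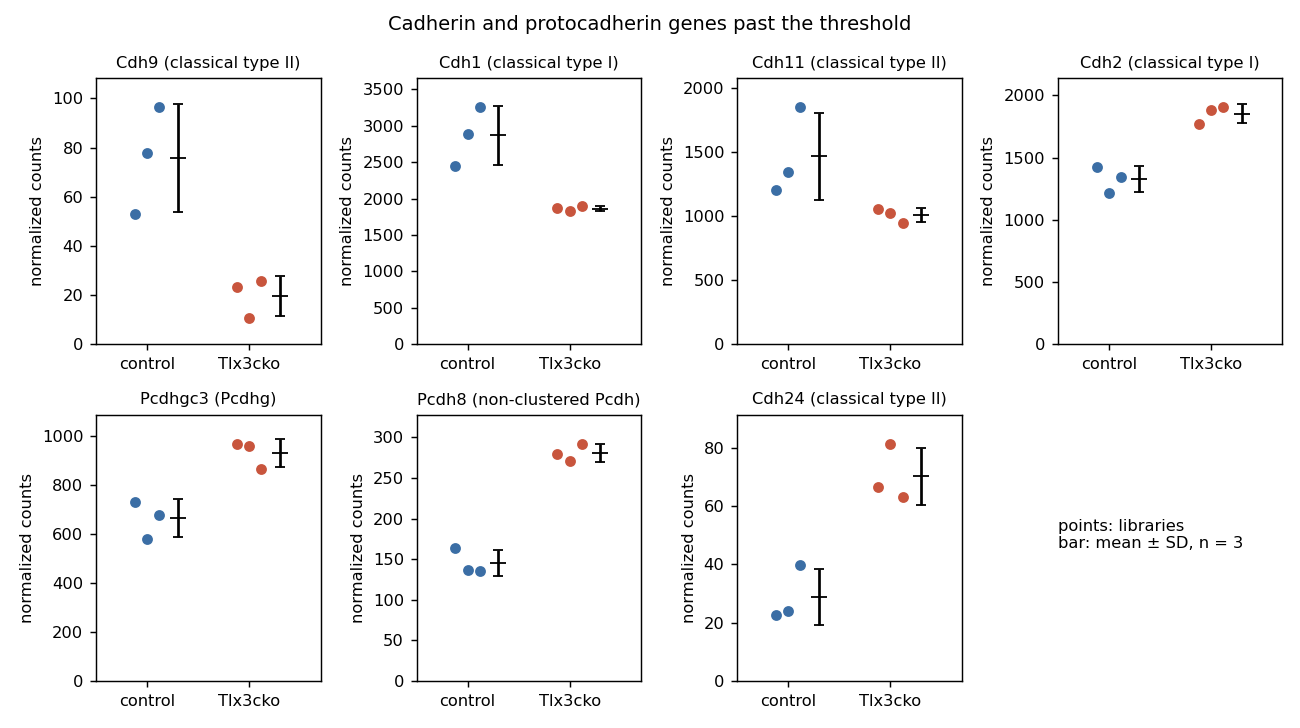
Normalized counts (vertical axes, linear from 0) of the 7 genes past the threshold in each library, control in blue and Tlx3cko in red, with the mean and SD (n = 3) as a bar. In every panel the 3 Tlx3cko points lie apart from the 3 control points, from 10.5 to 25.6 against 52.9 to 96.5 for Cdh9 and from 270.3 to 292 against 135 to 164 for Pcdh8.

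Promoter sequences of called genes are shown first, and their part in the direction of change was not tested. RefSeq promoters (GRCm38.p6, 250 bases before to 50 after the gene start) were held for 3 of the 7, namely Pcdh8, Cdh9 and Cdh24. Those of Cdh1, Cdh2, Cdh11 and Pcdhgc3 are not shown. Capitals mark matches to TATAAA or CCAAT on either strand, the only ones found among the 5 motifs searched. The Pcdh8 sequence lies at chr14:79771263-79771562 on the minus strand, the Cdh9 sequence at chr15:16728665-16728964 on the plus strand and the Cdh24 sequence at chr14:54641315-54641614 on the minus strand.
Pcdh8: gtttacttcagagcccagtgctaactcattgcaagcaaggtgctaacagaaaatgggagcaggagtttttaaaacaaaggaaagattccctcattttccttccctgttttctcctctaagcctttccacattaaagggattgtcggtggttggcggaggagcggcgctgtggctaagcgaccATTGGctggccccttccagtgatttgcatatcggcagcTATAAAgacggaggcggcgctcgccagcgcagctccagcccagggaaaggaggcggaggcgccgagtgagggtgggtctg
Cdh9: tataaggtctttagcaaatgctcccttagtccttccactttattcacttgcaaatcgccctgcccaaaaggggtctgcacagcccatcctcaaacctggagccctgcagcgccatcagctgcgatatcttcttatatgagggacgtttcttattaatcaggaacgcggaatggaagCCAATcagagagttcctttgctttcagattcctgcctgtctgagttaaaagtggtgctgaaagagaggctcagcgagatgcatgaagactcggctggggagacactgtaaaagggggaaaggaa
Cdh24: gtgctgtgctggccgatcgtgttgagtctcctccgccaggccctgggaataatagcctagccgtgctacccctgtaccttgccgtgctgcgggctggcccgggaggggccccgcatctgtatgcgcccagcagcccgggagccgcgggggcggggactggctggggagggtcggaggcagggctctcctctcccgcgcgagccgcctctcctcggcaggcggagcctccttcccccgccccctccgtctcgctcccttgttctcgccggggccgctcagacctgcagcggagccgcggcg

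The Pcdh8 promoter held TATAAA 30 bases before the start and ATTGG, the reverse complement of CCAAT, 68 bases before it. The Cdh9 promoter held CCAAT 74 bases before the RefSeq start. For Cdh9 that start differs from the GENCODE start, 16728756, which lies within the window shown and before the CCAAT. The Cdh24 promoter held neither and had the highest share of G and C of the 3, at 73.3%, with 30 CpG dinucleotides, against 54.3% with 14 for Pcdh8 and 48.7% with 8 for Cdh9. Over 32851 promoters of the same length, TATAAA on either strand was found in 13.6% and CCAAT in 37.4%. The homeodomain-type letters TAATTA (in 5.29% of promoters) and TAATTG (8.0%) and the E-box letters CAGGTG (20.2%) were in none of the 3 windows.

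Among the classical type I cadherins, Cdh1 fell and Cdh2 rose. Cdh1, or E-cadherin, is the cadherin of epithelia and also forms junctions within myelinating Schwann cells. It lies on chromosome 8 (mm10, 106603351 to 106670246, plus strand). Its normalized counts were 2453, 2888 and 3259 in control and 1866, 1827 and 1894 in Tlx3cko. The highest Tlx3cko library was below the lowest control library. The mean fell from 2867 ± 403 to 1862 ± 34.1 (SD, n = 3 each), to 65.0% of control, with a log2 fold change of -0.62 (SE 0.10, edgeR adjusted p = 0.00211). In whole ganglia, fewer cells of a type and less RNA per cell cannot be told apart. The 6 myelinating Schwann cell markers had a summed level of 34767 to 42204 normalized counts in control and 37428 to 42418 in Tlx3cko. These overlapped, and 0 of the 6 passed. Their part in the Cdh1 level was not tested.

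Cdh2, or N-cadherin, is the main classical cadherin of neurons and of many glia. It had 1426, 1219 and 1345 normalized counts in control and 1767, 1883 and 1907 in Tlx3cko, so every Tlx3cko library was above every control library. The mean rose from 1330 ± 104 to 1852 ± 75.0 (SD, n = 3 each; log2 fold change 0.48, SE 0.08, edgeR adjusted p = 0.0051). With the term for Y-linked counts the log2 fold change was 0.46 and the call was lost (edgeR adjusted p = 0.0961). In that fit control replicate 3, at 1345, is the only control that bears on the difference.

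Because Cdh1 and Cdh2 moved in opposite directions, their levels were also set against each other per kilobase of exon, a ratio chosen after seeing these values. Cdh1 was at 627 normalized counts per kb in control and 407 in Tlx3cko, and Cdh2 at 165 and 230. The ratio of Cdh1 to Cdh2 was 3.03, 4.18 and 4.27 in control and 1.86, 1.71 and 1.75 in Tlx3cko. Thus Cdh1 stayed the more abundant transcript in every library, while the mean ratio was 3.83 in control and 1.77 in Tlx3cko with no overlap. Since both genes had already separated the groups in opposite directions, the ratio could not overlap. It is therefore a description, and its exact permutation p of 0.1, the smallest possible, was fixed in advance. Cdh1 made up 43.9% ± 2.48 of the summed level per kb of the 18 classical cadherins in control and 31.5% ± 0.924 in Tlx3cko (SD, n = 3 each). Cdh2 made up 11.7% ± 1.62 and 17.8% ± 0.310 (SD, n = 3 each). The summed level itself was 1425 ± 136 and 1292 ± 42.1 normalized counts per kb and the groups overlapped (exact permutation test, p = 0.2, n = 3 each).

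**Figure D2:**
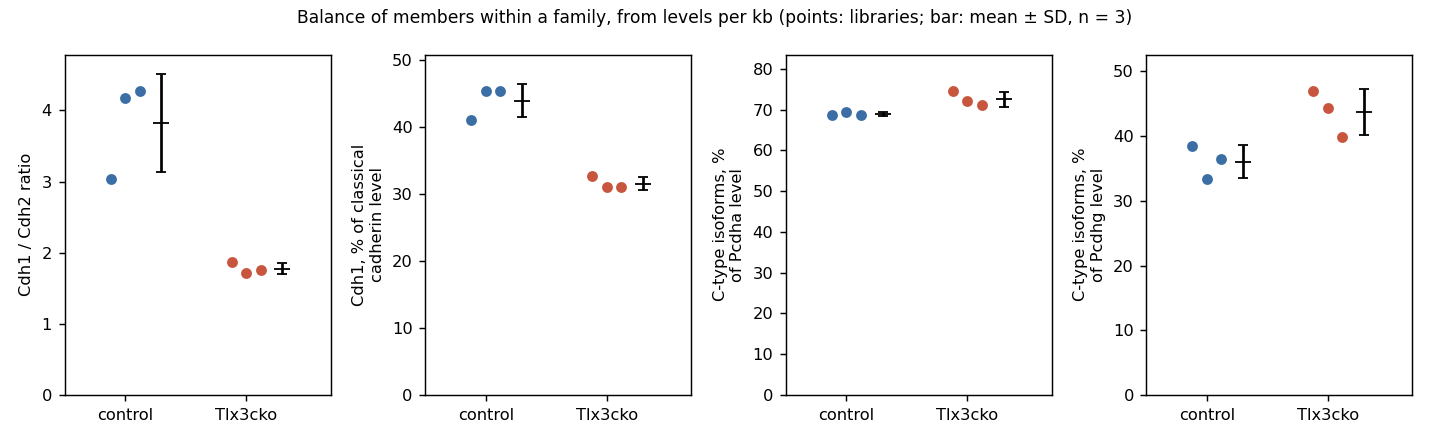
From left to right, the ratio of Cdh1 to Cdh2, the share of Cdh1 in the classical cadherins, and the shares of C-type isoforms in the Pcdha and Pcdhg clusters (percent), all from normalized counts per kb, per library with mean and SD (n = 3) as a bar. Axes start at 0. The ratio sits between 3.03 and 4.27 in control and between 1.71 and 1.86 in Tlx3cko, and none of the 4 quantities overlapped between the groups.

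The other type I cadherins did not pass. Cdh3, or P-cadherin, lies next to Cdh1 on the same strand, 46054 bases away, with 1 protein-coding gene annotated in between. It had 63.7, 71.8 and 41.5 normalized counts in control and 22.1, 27.6 and 29.5 in Tlx3cko (log2 fold change -1.15, SE 0.31, edgeR adjusted p = 0.0565). Its groups did not overlap, and it passed with DESeq2, without the filter on low counts and without control replicate 3. Cdh3 did not pass with limma-voom (adjusted p = 0.112) or in the other alternative fits. With the term for Y-linked counts its log2 fold change was -0.65. Cdh4, or R-cadherin, was at 343 ± 17.4 and 382 ± 78.7, and Cdh15, the M-cadherin of muscle and its satellite cells, at 191 ± 65.7 and 208 ± 42.3 (normalized counts, SD, n = 3 each), both with overlapping groups. Skeletal muscle markers were present in the ganglia, with a summed level of 88.5 to 1779 normalized counts in control and 1478 to 2776 in Tlx3cko over 5 markers of which 1 rose. Their part in the Cdh15 level was not tested.

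Among the 13 type II cadherins, 2 fell (Cdh9 and Cdh11), 1 rose (Cdh24) and 10 did not pass. The shares over all tested genes were 2.56% lower and 1.69% higher. The median log2 fold change of the 13 was 0.33. Cdh9, which acts in target choice of retinal bipolar cells and at hippocampal mossy fibre synapses, fell the most of the 7 genes. It lies on chromosome 15 (mm10, 16728756 to 16857094, plus strand). The control libraries held 49, 78 and 121 counts of it and the Tlx3cko libraries 24, 8 and 26, which gave 52.9, 77.8 and 96.5 against 23.1, 10.5 and 25.6 normalized counts. The highest Tlx3cko library had less than the lowest control library. The mean fell to 26.0% of control, with a log2 fold change of -1.91 (SE 0.35, edgeR adjusted p = 0.00648), and over the alternative fits the log2 fold change ran from -2.25 to -1.63. Of its exon bases, 224 are overlapped by an annotated gene on the other strand, Gm49127, and the library kit does not mark strand.

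Cdh11, or OB-cadherin, is the cadherin of bone-forming and other mesenchymal cells and of fibroblasts. It lies on chromosome 8 (mm10, 102632095 to 102785642, minus strand). Its normalized counts were 1203, 1345 and 1851 in control and 1053, 1026 and 949 in Tlx3cko. The groups did not overlap, but the control spread was wide because of control replicate 3. The mean fell from 1467 ± 341 to 1009 ± 54.1 (SD, n = 3 each; log2 fold change -0.54, SE 0.13, edgeR adjusted p = 0.0393). The call was lost when any single library other than control replicate 1 was left out, with a highest edgeR adjusted p of 0.156, and without control replicate 3 the log2 fold change was -0.34. Fibroblast markers moved with it: 3 of 5 fell (Col1a1, Dcn and Pdgfra), none was at 0, and their summed level was 4280 to 4791 normalized counts in control and 3312 to 3679 in Tlx3cko. Their part in the Cdh11 result was not tested.

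Cdh24, a type II cadherin that binds catenins, was counted 21, 24 and 50 times in the control libraries and 69, 62 and 64 times in the Tlx3cko libraries. It lies on chromosome 14 (mm10, 54631231 to 54641364, minus strand). In normalized counts these were 22.7, 23.9 and 39.9 against 66.4, 81.4 and 63.0, without overlap. The mean rose from 28.8 ± 9.59 to 70.2 ± 9.77 (SD, n = 3 each; log2 fold change 1.26, SE 0.30, edgeR adjusted p = 0.0293). The call was lost when any single library other than control replicate 3 was left out, and with the term for Y-linked counts (log2 fold change 0.81, edgeR adjusted p = 0.477).

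The type II cadherins that did not pass had log2 fold changes above 0 except Cdh7 and Cdh10, and the nearest to the threshold were Cdh8 and Cdh18. Cdh8, which marks retinal bipolar types and other neuronal circuits, had 285, 201 and 270.4 normalized counts in control and 334, 379 and 371 in Tlx3cko (log2 fold change 0.52, SE 0.15, edgeR adjusted p = 0.0728). Cdh18, a cadherin of the nervous system, had 372, 327 and 292 in control and 452, 433 and 427 in Tlx3cko (log2 fold change 0.41, SE 0.12, edgeR adjusted p = 0.0926). Cdh8 passed with DESeq2 (adjusted p = 0.0285) and without the filter on low counts (edgeR adjusted p = 0.0126), and Cdh18 without control replicate 1 (edgeR adjusted p = 0.0476). Neither overlapped between the groups, as was also so for Cdh12, Cdh20 and Cdh5. Cdh12 passed without the filter. Cdh5, or VE-cadherin, is the endothelial cadherin and was at 199 ± 40.3 in control and 264 ± 16.5 in Tlx3cko (normalized counts, SD, n = 3 each; edgeR adjusted p = 0.236). The endothelial markers had a summed level of 832 to 965 in control and 1096 to 1212 in Tlx3cko, with 1 of 6 past the threshold (Pecam1, higher) and none at 0, and their part in the Cdh5 level was not tested. Cdh19, which is expressed in Schwann cells and their precursors, was at 423 ± 93.9 and 444 ± 109 and its groups overlapped.

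The type II genes of 1 chromosome region did not move as a block. On chromosome 15, Cdh6, Cdh9, Cdh10, Cdh12 and Cdh18 follow each other with no protein-coding gene annotated between them, 959489 to 3555081 bases apart. Their log2 fold changes in that order were 0.33, -1.91, -0.43, 0.998 and 0.41, and only that of Cdh9 passed (n = 3 per group). On chromosome 8, Cdh8, Cdh11 and Cdh5 are likewise neighbours, 3215624 and 1315983 bases apart. Their log2 fold changes were 0.52, -0.54 and 0.41, and only that of Cdh11 passed.

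By level per kb in control, Cdh11 led the type II group with 165 normalized counts per kb, ahead of Cdh19 with 98.8, Cdh18 with 72.6 and Cdh5 with 47.4. In Tlx3cko the same order began with Cdh11 at 113, Cdh19 at 104 and Cdh18 at 96.1. Counts of Cdh19 overlapped between the groups, while those of Cdh11 and Cdh18 did not.

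The remaining Cdh genes are atypical. Cdh13, or T-cadherin, is held by a lipid anchor and has no catenin-binding tail, Cdh23 forms part of the tip links of hair cells, and Cdh26 is known from epithelia. Cdh13 was at 130.1 ± 31.4 and 132 ± 17.3 normalized counts and Cdh23 at 19.9 ± 4.98 and 22.0 ± 5.18 (SD, n = 3 each). Cdh26 had 19 counts over all libraries. All 3 overlapped between the groups.

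**Figure D3:**
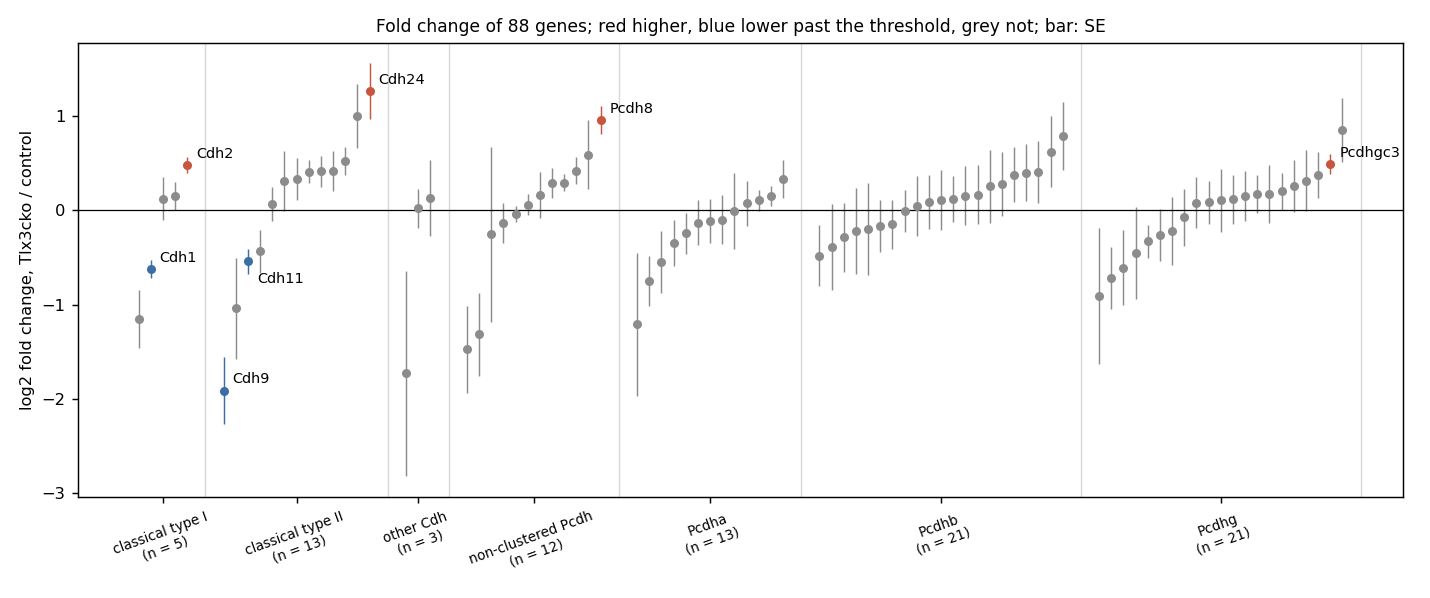
Log2 fold change (Tlx3cko over control, vertical axis) with its SE for the 88 genes, sorted within each family along the horizontal axis. Red marks genes that rose past the threshold, blue those that fell and grey those that did not pass. The values run from -1.91 (Cdh9) to 1.26 (Cdh24). Of the 7 called genes, 5 are among the 18 classical cadherins, and 4.25% of all tested genes passed.

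Of the 12 non-clustered protocadherins, 1 rose (Pcdh8), none fell and 11 did not pass. The shares over all tested genes were 2.56% lower and 1.69% higher. The median log2 fold change of the 12 was 0.11. Pcdh8, also known as arcadlin, is induced by neuronal activity and takes part in the removal of N-cadherin from synapses. It lies on chromosome 14 (mm10, 79766775 to 79771312, minus strand). Its normalized counts were 164, 137 and 135 in control and 279, 270.3 and 292 in Tlx3cko. Both groups were tight and far apart. The mean rose from 145 ± 16.4 to 281 ± 11.1 (SD, n = 3 each; log2 fold change 0.95, SE 0.15, edgeR adjusted p = 0.00183), the lowest adjusted p of the 88 genes. A gene on the other strand, Gm9748, overlaps 436 of its exon bases and also rose (log2 fold change 1.53, edgeR adjusted p = 0.0124), so part of the reads of each could belong to the other.

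Several non-clustered protocadherins were far more abundant than Pcdh8 and did not pass. Pcdh1, which is expressed in epithelia and neurons, led with 345 normalized counts per kb in control and was at 3039 ± 29.0 and 2963 ± 324 normalized counts (SD, n = 3 each). Pcdh9, a protocadherin of cortical and other neurons, had 1171, 1043 and 1233 in control and 1334, 1474 and 1421 in Tlx3cko, without overlap (log2 fold change 0.29, SE 0.09, edgeR adjusted p = 0.101). Pcdh7, which is expressed in sensory and central neurons, had 1917, 1146 and 1452 in control and 1914, 2190 and 1930 in Tlx3cko. Its groups overlapped through control replicate 1, and it passed with DESeq2, without the filter on low counts and without control replicate 1. A gene on the other strand, 4932441J04Rik, overlaps 2235 of its exon bases. That gene had a log2 fold change of 0.52 and did not pass (edgeR adjusted p = 0.265). Part of the reads of each could belong to the other. Pcdh12, the vascular endothelial protocadherin, had 33.5, 40.9 and 20.7 in control and 10.6, 17.1 and 6.89 in Tlx3cko, without overlap (log2 fold change -1.47, SE 0.46, edgeR adjusted p = 0.109), and passed without the filter on low counts. Its direction was opposite to that of the summed endothelial markers given above.

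Of the 55 clustered protocadherins, 1 passed, Pcdhgc3, against 4.25% of all tested genes. Between the groups 7 did not overlap, 3 lower and 4 higher, against 19.7% of all tested genes. The Pcdha genes had a median log2 fold change of -0.11, the Pcdhb genes 0.11 and the Pcdhg genes 0.11. The sum over the Pcdha genes was 2920 ± 435 normalized counts in control and 3014 ± 18.4 in Tlx3cko, and that over the Pcdhb genes 1051 ± 181 and 1070 ± 84.1 (SD, n = 3 each). Both overlapped (exact permutation test, p = 1 for each, n = 3 per group). The sum over the Pcdhg genes was 1945, 1678 and 1844 in control and 2035, 2182 and 2146 in Tlx3cko. It did not overlap (two-sided exact permutation test, p = 0.1, the smallest possible). The Tlx3cko mean was 116% of control. Within this sum Pcdhgc3 went from a mean of 663 in control to 929 in Tlx3cko, and the alternate isoforms from 1070 to 1083. The rise of the Pcdhg sum is therefore not separate from that of Pcdhgc3, and the limits given below for Pcdhgc3 apply to it.

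Isoforms of a cluster share their 3' exons, so the way reads were assigned bears on each value. Pcdha4 shares 5274 of its 5768 exon bases with other genes on its strand and held 1 count, whereas its neighbours Pcdha3 and Pcdha5 held 684 and 243. Reads of the shared exons were therefore not added to every isoform. Levels per kb of clustered genes were divided by the exon bases that no gene on the same strand shares. The symbol Pcdha11 stands on 2 Ensembl genes, and these are kept apart as deposited.

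Pcdhgc3 is a C-type isoform known for promoting dendrite branching in cortical neurons. It lies at the end of the Pcdhg cluster on chromosome 18 (mm10, 37806364 to 37841873, plus strand). Its normalized counts were 732, 579 and 679 in control and 968, 957 and 863 in Tlx3cko, so all Tlx3cko libraries were above all control libraries. The mean rose from 663 ± 77.3 to 929 ± 57.6 (SD, n = 3 each; log2 fold change 0.49, SE 0.11, edgeR adjusted p = 0.0195). It no longer passed in 4 of 6 leave-one-out fits (control replicate 2, control replicate 3, Tlx3cko replicate 1 or Tlx3cko replicate 2) and with the term for Y-linked counts (edgeR adjusted p = 0.235). A gene on the other strand, BC037039, overlaps 1559 of the 3380 exon bases that Pcdhgc3 does not share on its own strand. It also rose (log2 fold change 0.55, edgeR adjusted p = 0.0381), from 1289 ± 239 to 1883 ± 271 normalized counts (SD, n = 3 each). Part of the reads of each could therefore belong to the other.

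The other C-type isoforms did not pass. Pcdhac2, which is needed for the even spread of serotonergic axons, was the most abundant clustered isoform, at 525 normalized counts per kb in control and 566 in Tlx3cko. Its normalized counts were 1791, 1278 and 1699 in control and 1773, 1670 and 1695 in Tlx3cko, which overlapped (log2 fold change 0.11, SE 0.11). Pcdhac1 was at 511 ± 35.5 and 566 ± 33.5, and Pcdhgc4, which neurons need for survival, at 81.0 ± 24.2 and 105 ± 15.9 (SD, n = 3 each). Pcdhgc5 had 37 counts over all libraries.

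The alternate isoforms were low and showed no call. Of 29 alternate Pcdha and Pcdhg genes, 16 had a log2 fold change below 0 and 13 above, and 3 had an unadjusted p under 0.05 in the edgeR fit, against 14.5% of all tested genes. The 11 alternate Pcdha genes were below 0 for 9, with a median of -0.13, and among them only the Pcdha11 gene ENSMUSG00000102206 did not overlap (62.6, 61.8 and 86.9 normalized counts in control, 50.05, 34.1 and 41.3 in Tlx3cko, edgeR adjusted p = 0.173). Genes on the other strand, Gm10545 and Gm10544, overlap 3338 of its exon bases. The most abundant alternate isoforms per kb were Pcdha12, at 145 ± 37.7 and 114 ± 34.1 normalized counts, Pcdhga11, at 148 ± 14.9 and 117 ± 9.43, and Pcdhga3, at 121 ± 27.4 and 136 ± 6.87 (SD, n = 3 each). Pcdhga11 did not overlap between the groups and did not pass (log2 fold change -0.33, SE 0.17, edgeR adjusted p = 0.437), and Gm26672 on the other strand overlaps 1381 of its exon bases.

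The Pcdhb genes, which have no C-type member and no constant exons in common, were low, with 124 to 795 counts per gene over all libraries. Pcdhb9 led with 48.7 normalized counts per kb in control and 35.2 in Tlx3cko. Its normalized counts were 105, 119 and 223 against 137, 126 and 60.0 and overlapped. Pcdhb17 was at 112 ± 36.2 and 101 ± 25.0 and Pcdhb10 at 46.3 ± 13.9 and 49.7 ± 5.29 (normalized counts, SD, n = 3 each). None of the 21 Pcdhb genes had an unadjusted p under 0.05 in the edgeR fit, against 14.5% of all tested genes, and with a median SE of 0.32 on the log2 scale small changes were not detectable at this depth.

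**Figure D4:**
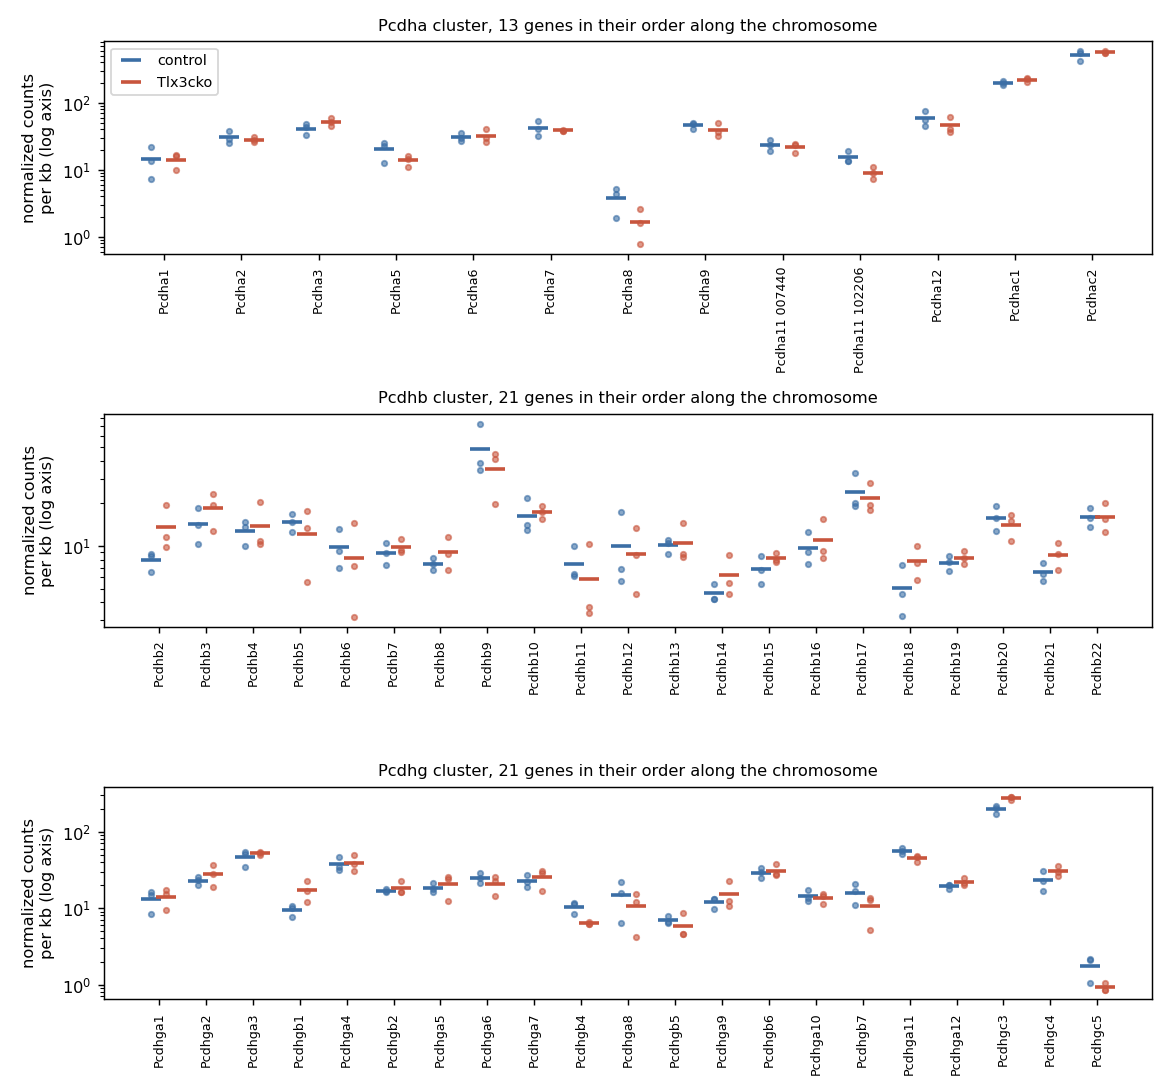
Normalized counts per kb (log axis) of the Pcdha, Pcdhb and Pcdhg genes in their order along the chromosome, with points for libraries and dashes for group means, control in blue and Tlx3cko in red. Pcdhac1, Pcdhac2 and Pcdhgc3 at the cluster ends stand above the alternate isoforms, and Pcdhgc3 is at 196 in control and 275 in Tlx3cko.

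Sums over the C-type and the alternate isoforms were compared after these values had been seen. In the Pcdhg cluster the C-type sum was 848, 648 and 761 normalized counts in control and 1063, 1083 and 969 in Tlx3cko, while the alternate sum was 1070 ± 35.7 and 1083 ± 104 (SD, n = 3 each). The first did not overlap and the second did. Pcdhgc3, at 663 and 929, makes up most of the C-type sum, so the sum and the shares below repeat its values, with the limits given for its call and for BC037039. As a share of the summed level per kb, C-type isoforms made up 38.4%, 33.4% and 36.4% of the Pcdhg cluster in control and 47.0%, 44.4% and 39.9% in Tlx3cko. In the Pcdha cluster they made up 69.0% ± 0.456 in control and 72.5% ± 1.82 in Tlx3cko (SD, n = 3 each). Neither share overlapped between the groups (exact permutation test, p = 0.1 for each, the smallest possible, n = 3 each). The shares were chosen after their values were seen, so no conclusion is drawn from these p-values.

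Genes around the family were described by lists. Of 24 other cadherin superfamily genes, 18 were tested, 2 fell and none rose, against 2.56% lower and 1.69% higher over all tested genes. Their median log2 fold change was -0.03. Cdhr1, a photoreceptor protocadherin, had 707, 712 and 822 normalized counts in control and 419, 345 and 342 in Tlx3cko (log2 fold change -1.02, SE 0.12, edgeR adjusted p = 0.000193). Ret, the receptor tyrosine kinase with cadherin repeats that receives GDNF family signals in nonpeptidergic neurons, was at 17957 ± 1891 normalized counts in control and 14267 ± 690 in Tlx3cko (SD, n = 3 each; log2 fold change -0.33, edgeR adjusted p = 0.0381). It no longer passed in 4 of 6 leave-one-out fits, with a highest edgeR adjusted p of 0.186.

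The 20 tested partners of cadherins or protocadherins were catenins, proteases and kinases, with Vcl, Cyfip1, Nckap1 and Wasf1. Of the 20, 0 passed in edgeR and 4 had an unadjusted p under 0.05 (Vcl and Ctnnb1 lower, Ptk2b and Ctnnd2 higher), against 14.5% of all tested genes. DESeq2 called 3 and limma-voom 0. The lowest p among them were those of Vcl, or vinculin, which joins catenins to actin (923 ± 47.1 and 730 ± 12.3 normalized counts, SD, n = 3 each, edgeR adjusted p = 0.0507), and Ctnnb1, or beta-catenin (6742 ± 268 and 5698 ± 200, SD, n = 3 each, edgeR adjusted p = 0.0744). Neither overlapped between the groups. Ptk2b, a kinase of the focal adhesion kinase family, was close behind in the other direction (666 ± 78.7 and 880 ± 102, SD, n = 3 each, edgeR adjusted p = 0.0744), also without overlap. Of 14 genes known for promoter choice at the clustered protocadherins, 0 passed in edgeR, limma-voom or DESeq2 and 2 had an unadjusted p under 0.05 in edgeR, a share near the 14.5% of all tested genes. These were the cohesin subunit Smc3 (log2 fold change -0.30, edgeR adjusted p = 0.231) and the cohesin loader Nipbl (log2 fold change -0.27, edgeR adjusted p = 0.293), both lower in Tlx3cko without overlap.

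Markers of sensory neuron classes moved between the same libraries as the called genes. All 5 markers of the itch-related NP2 and NP3 classes fell, with a summed level of 1315 to 1698 normalized counts in control and 50.2 to 69.3 in Tlx3cko. All 4 markers of the nonpeptidergic NP1 class fell, with a sum of 11303 to 13197 against 5365 to 6184, and 3 of 4 markers of C-low-threshold mechanoreceptors fell, with a sum of 2767 to 4406 against 1732 to 1752. In the other direction, 3 of 4 peptidergic markers rose, with a sum of 21963 to 23271 against 37752 to 41073, and 2 of 5 markers of myelinated neurons rose, with a sum of 28635 to 30576 against 36534 to 38437. No marker of these lists was at 0 over all libraries. The part of any class in the changes of Cdh1, Cdh9, Cdh2 or Pcdh8 was not tested.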

How the data were processed

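Total RNA of DRGs was sequenced by the authors from 3 control and 3 Tlx3cko samples with a kit that does not mark strand, so overlapping genes on opposite strands cannot be told apart. The deposited values are raw counts per Ensembl gene. The submitters' processing notes name STAR 2.5.2a and mm10, and the counting program and its settings are not given in the sources used here. Symbols and positions came from GENCODE M21. Of 47937 rows, 208 had no annotation there and held 0.245% of counts. The table held 0 columns of other samples.

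Testing used edgeR 4.0.16 (R 4.3.3, TMM scaling, quasi-likelihood test) on the genes whose counts summed to 10 or more, Tlx3cko against control, with Benjamini-Hochberg adjustment over all genes tested. Scripts were tested on simulated counts. DESeq2 1.42.0 and limma 3.58.1 served as alternatives, together with other scalings and filters, a replicate block, a Y-linked term and leaving out each library. Y-linked libraries had at least 10 Ddx3y counts. The cluster sums, the C-type and alternate sums, the classical cadherin sum, and the shares and the ratio within families were compared by exact permutation. Levels per kb used exon bases not shared on the same strand. Replicates of a group differed beyond sampling noise (chi-square per degree of freedom 4.32 to 10.1). Counting error is only part of the spread between libraries, which the fit estimated from 3 libraries per group.

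Named were every member past the threshold, the 3 most abundant per kb of each family, the 5 of lowest p among the rest, and up to 6 called genes of each other list or else its 2 of lowest p. Other members named in the text were chosen after their values were seen. Members and lists were chosen with earlier results of these data known. The adjusted p-values are those of edgeR unless another tool is named.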

Additional observations from a re-analysis of the deposited data

How the results depend on the processing

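The count of 7 called genes was within 1.5 times under both other scalings, limma-voom, filterByExpr and DESeq2, and all 7 stayed called in each of these. It became 12 without the filter on low counts, 4 with the term for Y-linked counts, 4 at an adjusted p under 0.01, 2 with a 2-fold minimum (Cdh9 and Cdh24) and 4 to 8 when 1 library was left out. Over all genes the count of 851 became 1529 without the filter, 487 with the Y-linked term and 488 to 938 when 1 library was left out. The other superfamily list gave 1 to 2 when 1 library was left out, and the partner list gave 1 with library totals, 3 with DESeq2, 2 without the filter and 0 to 2 when 1 library was left out. Tlx3 stayed lower, at -0.38 (log2, edgeR adjusted p = 0.223) with the Y-linked term and from -0.54 to -0.39 when 1 library was left out, where 3 of 6 fits lost the call. The cause of these moves was not tested. Leaving out a library also lowers the number of samples, and this was not separated from the influence of the library left out.

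Of the genes named by the rule given under processing that did not pass, 3 changed sign with the Y-linked term, on the log2 scale: Cdh19 (-0.26), Cdh23 (-0.21) and Pcdhb10 (-0.32). When 1 library was left out, the log2 fold change crossed 0 for Cdh13 (-0.091 to 0.23), Cdh15 (-0.025 to 0.44), Cdh19 (-0.14 to 0.27), Cdh23 (-0.072 to 0.36), Pcdh1 (-0.12 to 0.030), Pcdhac2 (-0.026 to 0.20), Pcdhb10 (-0.050 to 0.37), Pcdhb17 (-0.37 to 0.15) and Pcdhga3 (-0.0027 to 0.28). None of the 7 called genes changed sign.

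Replicate numbers did not pair the samples: deviations of same-numbered libraries correlated at -0.07, -0.01 and -0.06. With a replicate block all 7 genes stayed called, the count over all genes was 770 and the other superfamily list had 1 (Ret was lost, edgeR adjusted p = 0.0671). Low counts limit Cdh9, Cdh24 and most Pcdhb genes.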
